A study of Mus musculus with 8 samples.

Results

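The genes described here are 10 claudins made by nephron epithelium: Cldn1, Cldn2, Cldn3, Cldn4, Cldn7, Cldn8, Cldn10, Cldn14, Cldn16 and Cldn19. Each was read by the probe set that the platform's annotation assigns to that gene alone, or by the one with the highest mean over the 8 arrays where there were several. All 10 had such a probe set, and they are 10 of the 19936 genes measured in this way. RNA came from whole kidneys of 8 female mice of mixed C57BL/6 - SV127 background. The genotype Pax8-rtTA;LC-1;Vhl-floxed is given for 4 of them, here the arrays labelled mutant, and "control" for their 4 littermates, here the arrays labelled control. Which of these alleles the littermates carried is not stated. In this system doxycycline switches on Cre recombinase from LC-1 wherever Pax8-rtTA is made, which is tubule epithelium, to delete floxed Vhl, whose protein marks hypoxia-inducible factor (HIF) for destruction. Mice of both groups drank doxycycline (0.2 mg/ml, with 5% sucrose) from 3 weeks of age for 2 weeks, then plain water for 1 week, and kidneys were taken at 6 weeks.

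Claudins are four-pass membrane proteins whose loops meet between neighbouring epithelial cells and set which ions cross the tight junction. Early nephron segments are leaky: Cldn2 forms a cation and water pore in the proximal tubule, and Cldn10 forms ion pores there and, as another isoform, in the thick ascending limb. In the thick ascending limb Cldn16 and Cldn19 together allow calcium and magnesium to be reabsorbed between cells, loss of either causes urinary magnesium wasting with nephrocalcinosis, and Cldn14 restrains them. Cldn3, Cldn4, Cldn7 and Cldn8 seal the tight distal nephron and collecting duct, and Cldn1 is found in the parietal cells of Bowman's capsule.

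The group labels did not match the readouts of the genetic system. Vhl read 8.34 ± 0.091 in the arrays labelled mutant and 8.05 ± 0.12 in those labelled control (SD, n = 4 each). Egln3, a gene that HIF induces, read 8.82 ± 0.23 against 11.79 ± 0.20 (SD, n = 4 each, limma adjusted p = 2.15e-06). Car9, another such gene, read 7.18 ± 0.27 against 10.06 ± 0.70 (SD, n = 4 each, limma adjusted p = 0.000523). All of these run against a loss of Vhl in the arrays labelled mutant. The part of Vhl that its probe set covers is not given in the sources used here. The Vhl difference itself was borderline (limma adjusted p = 0.0387): its call was lost in a fit with the replicate number as a block (0.0558) and on leaving out any single array other than mutant array 1 or control array 4 (0.0785 to 0.114). Directions below compare the labels only and should not be read as effects of deleting Vhl. Array medians lay between 7.55 and 7.58 on the log2 scale. A probe set's level depends on its own probes, so no claudin's level is set against another's.

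Of the 10 claudins, 2 rose, Cldn16 and Cldn19, 0 fell, and 8 did not pass the test. The test was limma's, with p-values adjusted over all 19936 genes and a call at an adjusted p under 0.05. Among all genes 2.59% passed as higher and 4.64% as lower in the arrays labelled mutant, 7.23% in all. The groups did not overlap in the same 2 claudins, against 14.8% of all genes. The median log2 difference, labelled mutant minus labelled control, was 0.51 for the 3 thick ascending limb claudins, 0.06 for the 2 proximal ones and 0.09 for the 4 of tight segments, beside 0.03 over all genes tested. Cldn10 (0.16) was counted as proximal only, although another isoform of it belongs to the thick ascending limb. These medians depend on that choice. With the proximal and thick limb claudins counted together as those of leaky segments, 2 of 5 rose with a median of 0.16.

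**Figure D1:**
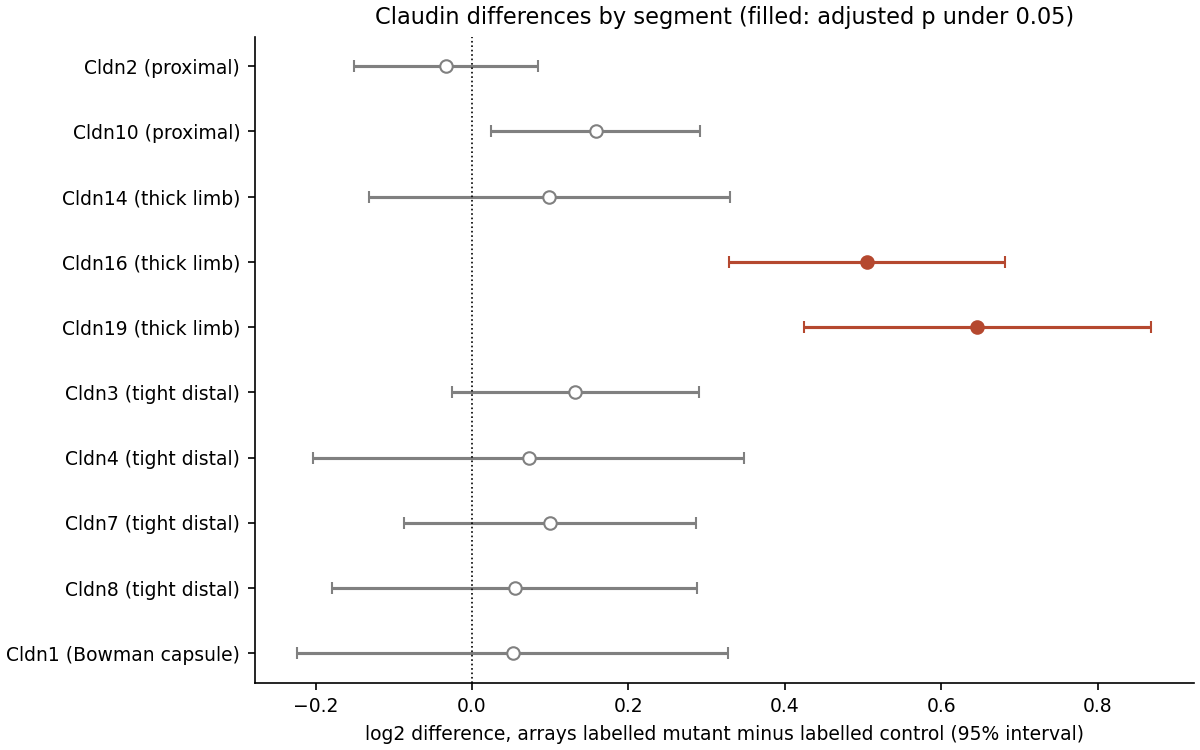
Log2 difference of each of the 10 claudins, arrays labelled mutant minus arrays labelled control, grouped by nephron segment; points are limma estimates, bars are 95% intervals, and filled points passed the test. Cldn19 (0.65) and Cldn16 (0.51) lie apart from the other 8, whose estimates run from -0.03 to 0.16.

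The bases upstream of the 2 genes that rose are shown with those of Cldn10, whose isoforms start at separate promoters, because HIF acts through a short core sequence, ACGTG or GCGTG. Each line gives the 250 bases before an annotated start, 5' to 3' along the gene, from RefSeq and build GRCm38.p6, and capitals mark a core on the gene's own or the opposite strand.
Cldn16, chr16:26462885-26463134, plus strand: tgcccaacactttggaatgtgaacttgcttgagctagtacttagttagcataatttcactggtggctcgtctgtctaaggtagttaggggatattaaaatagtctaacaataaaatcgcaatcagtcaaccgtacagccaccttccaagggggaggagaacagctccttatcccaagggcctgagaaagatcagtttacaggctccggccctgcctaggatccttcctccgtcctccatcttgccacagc
Cldn19, chr4:119255191-119255440, plus strand: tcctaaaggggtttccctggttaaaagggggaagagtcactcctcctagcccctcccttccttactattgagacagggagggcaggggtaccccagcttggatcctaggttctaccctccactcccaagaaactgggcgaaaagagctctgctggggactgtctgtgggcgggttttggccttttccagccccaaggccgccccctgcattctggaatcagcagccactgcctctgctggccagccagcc
Cldn10, first start, chr14:118787621-118787870, plus strand: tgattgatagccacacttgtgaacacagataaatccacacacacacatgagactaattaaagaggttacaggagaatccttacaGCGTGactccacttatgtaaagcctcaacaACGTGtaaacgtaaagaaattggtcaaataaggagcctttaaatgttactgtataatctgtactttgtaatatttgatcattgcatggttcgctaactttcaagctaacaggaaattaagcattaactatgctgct
Cldn10, second start, chr14:118854700-118854949, plus strand: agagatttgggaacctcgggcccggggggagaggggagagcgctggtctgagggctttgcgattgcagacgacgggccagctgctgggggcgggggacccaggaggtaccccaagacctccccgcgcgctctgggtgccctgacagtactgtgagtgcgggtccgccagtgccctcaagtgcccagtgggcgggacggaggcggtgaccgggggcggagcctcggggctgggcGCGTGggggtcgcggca

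The upstream bases of Cldn16 and Cldn19 held no core. The first start of Cldn10 had GCGTG beginning 166 and ACGTG beginning 136 bases before it, and the second had GCGTG at 17 bases. Promoter windows in the table run from 250 bases before to 50 after a start. They were found for 9 of the 10 claudins, 14 windows in all, and 7 of the 14 held a core on either strand, against 43.8% of all 32851 windows. The single windows of Cldn3 and Cldn4, each of the 2 of Cldn7 and 1 of the 3 of Cldn14 held 1 core, and those of Cldn1 and Cldn2 held 0. A match is a run of letters and not a binding site, and its absence from this window says nothing about other regions.

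Cldn16 rose 1.42-fold. It read 10.20, 10.38, 10.28 and 10.15 in the 4 arrays labelled mutant and 9.67, 9.59, 9.83 and 9.89 in the 4 labelled control, in the order of their replicate numbers. Every array labelled mutant lay above every array labelled control. The log2 difference was 0.51 (SE 0.079, 95% interval 0.33 to 0.68, limma adjusted p = 0.00451).

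Cldn19, which encodes its partner in the same strands, rose 1.57-fold. The 4 arrays labelled mutant read 10.31, 10.10, 10.38 and 10.08, and the 4 labelled control 9.71, 9.37, 9.49 and 9.72. These groups did not overlap either, and the log2 difference was 0.65 (SE 0.10, 95% interval 0.42 to 0.87, limma adjusted p = 0.00424). Between arrays of the same replicate number the difference was positive in 4 of 4 pairs for each gene. It ran from 0.26 to 0.78 for Cldn16 and from 0.36 to 0.89 for Cldn19, and was smallest for number 4 in both. With the replicate number as a block both passed again (limma adjusted p = 0.0188 for Cldn16 and 0.00917 for Cldn19), where 8.31% of all genes passed. Both genes passed under all 17 alternative settings, with limma adjusted p from 0.00171 to 0.0323 and from 0.00177 to 0.0258. Each has a single probe set, so the setting that averages a gene's probe sets could not change their values.

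Cldn14, grouped here with Cldn16 and Cldn19 as a claudin of the thick ascending limb and an inhibitor of both, did not pass. It read 7.70, 7.30, 7.36 and 7.26 in the arrays labelled mutant and 7.50, 7.25, 7.20 and 7.28 in those labelled control. Array 1 was the highest in both groups, and the groups overlapped. The log2 difference was 0.10 (95% interval -0.13 to 0.33, limma adjusted p = 0.616). It was below 0.01 without mutant array 1. The mean of Cldn14 lay below the array medians in both groups.

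**Figure D2:**
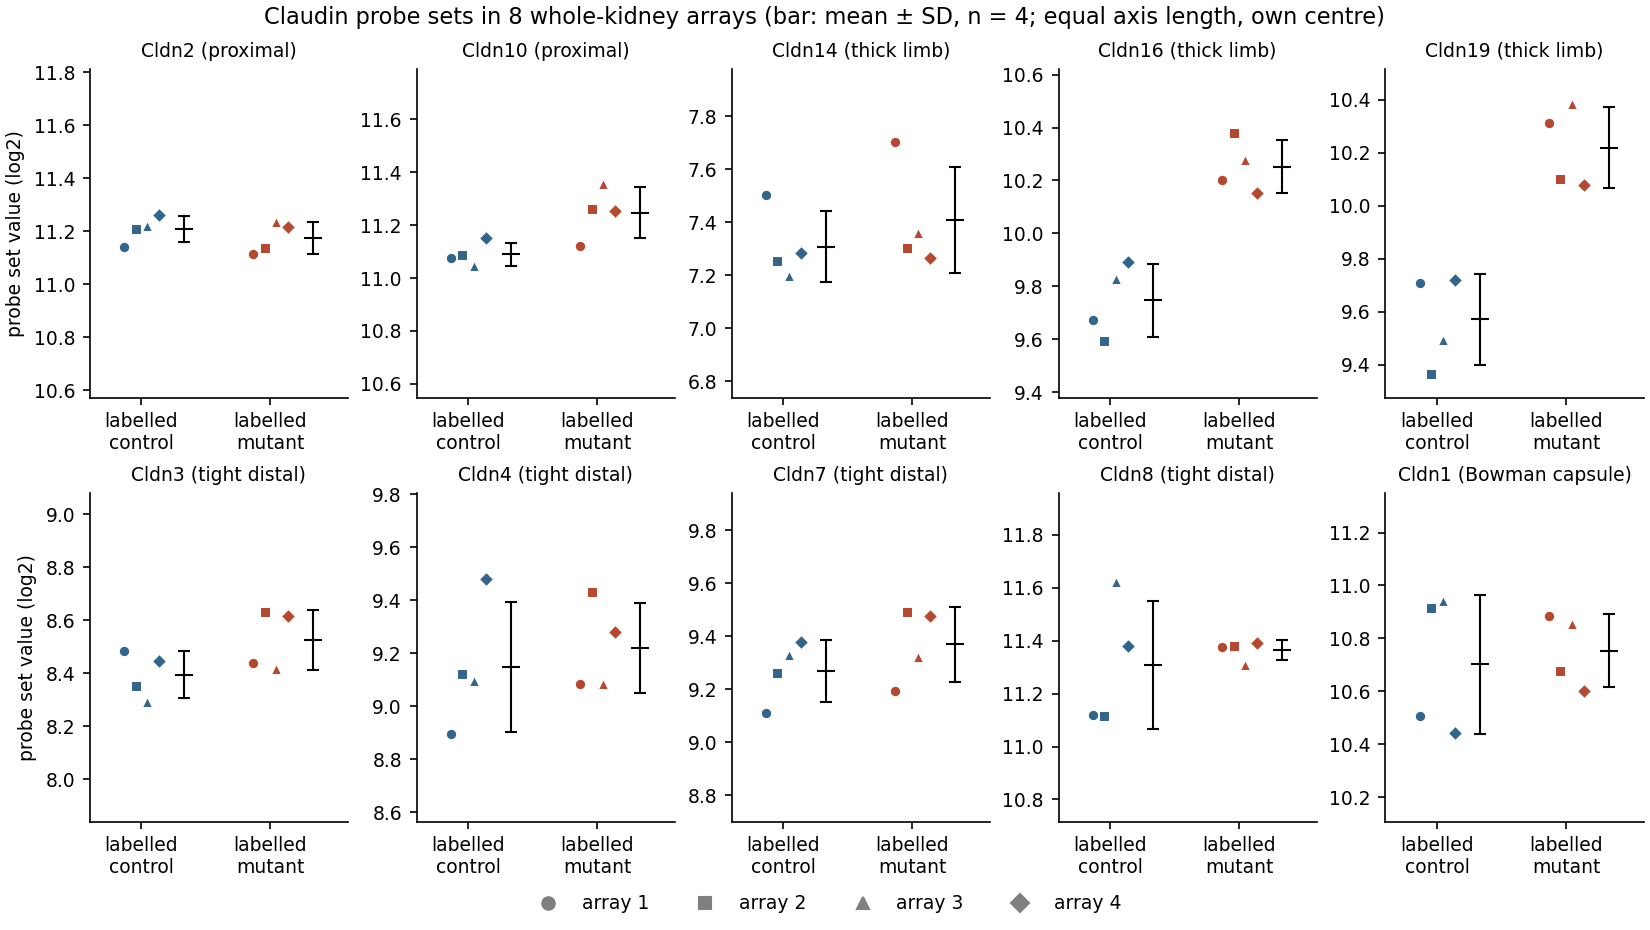
Log2 probe set values of the 10 claudins in each of the 8 arrays; symbols mark the replicate number of an array, and black bars give the group mean and SD (n = 4). The axes have the same length in every panel but their own centre. The groups are separate for Cldn16 and Cldn19 and overlap for the other 8 claudins.

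The claudins of the proximal tubule did not pass. Cldn2, the cation and water pore, read 11.11 to 11.23 in the arrays labelled mutant and 11.14 to 11.26 in those labelled control. Its log2 difference was -0.03 with a 95% interval of -0.15 to 0.08 (limma adjusted p = 0.749), the narrowest interval of the 10. The interval does not reach a change of the size seen for Cldn16 (0.51).

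Cldn10 stood between these and the called pair. It read 11.12, 11.26, 11.36 and 11.25 in the arrays labelled mutant and 11.07, 11.09, 11.05 and 11.15 in those labelled control. Only mutant array 1, at 11.12, fell within the range of the arrays labelled control, whose highest was control array 4. The log2 difference was 0.16 (95% interval 0.02 to 0.29), positive in 4 of 4 same-numbered pairs, and missed the threshold (limma adjusted p = 0.158, and 0.0731 to 0.349 over the alternatives). A further probe set naming only Cldn10 gave 11.03 ± 0.089 against 10.88 ± 0.029 (SD, n = 4 each), a log2 difference of 0.15. The platform's annotation lists the same 6 RefSeq transcripts under both probe sets, so they are not independent readings and do not separate the proximal from the thick limb isoform. Another probe set, shared with the neighbouring gene Dzip1, read 7.04 ± 0.15 against 6.93 ± 0.19 (SD, n = 4 each).

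None of the 4 sealing claudins of the distal nephron passed, and their log2 differences were small and positive. Cldn3 read 8.44, 8.63, 8.42 and 8.62 in the arrays labelled mutant and 8.49, 8.35, 8.29 and 8.45 in those labelled control, a log2 difference of 0.13 (95% interval -0.03 to 0.29, limma adjusted p = 0.316). Cldn4, which with Cldn8 forms a chloride pathway in the collecting duct, differed by 0.07 (95% interval -0.20 to 0.35, limma adjusted p = 0.768). Its arrays labelled mutant spread from 9.08 to 9.43 and its arrays labelled control from 8.90 to 9.48, so the range of 1 group held the whole of the other. Cldn7, also found along the basolateral membrane, read 9.19 to 9.49 against 9.11 to 9.38 and differed by 0.10 (95% interval -0.09 to 0.29, limma adjusted p = 0.522).

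Cldn8, the sealing claudin of the collecting duct that KLHL3 targets for degradation, was nearly the same in every array labelled mutant, at 11.38, 11.38, 11.31 and 11.39. The arrays labelled control ranged more widely, from 11.12 in arrays 1 and 2 to 11.38 in array 4 and 11.62 in array 3. The log2 difference was 0.05 (95% interval -0.18 to 0.29, limma adjusted p = 0.795), and it was -0.01 without control array 1 or without control array 2. Cldn1, of the parietal cells, was as variable among controls, at 10.51, 10.92, 10.94 and 10.44 against 10.88, 10.68, 10.85 and 10.60 in the arrays labelled mutant. Its log2 difference was 0.05 (95% interval -0.22 to 0.33, limma adjusted p = 0.835). For these tight-segment claudins and Cldn1 the intervals exclude a rise as large as that of Cldn16 (0.51) and leave rises of up to 0.35 possible.

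The distance between this pair and the other claudins is given as a description, without a test, because the pair was singled out for its size. The log2 difference of Cldn19 exceeded those of the 8 other claudins by 0.49 (Cldn10) to 0.68 (Cldn2). That of Cldn16 exceeded them by 0.35 (Cldn10) to 0.54 (Cldn2). Against the sealing claudin Cldn8 the excess was 0.59 and 0.45.

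Of 10 measured markers of the thick ascending limb 4 rose and 0 fell, with a median log2 difference of 0.25. Tmem207, a membrane protein gene, rose 1.81-fold (10.79 ± 0.16 against 9.93 ± 0.21, limma adjusted p = 0.00198) and Bsnd, the barttin subunit of the chloride channels, 1.47-fold (10.72 ± 0.035 against 10.17 ± 0.14, SD, n = 4 each). The defining markers Umod and Slc12a1, for uromodulin and the sodium-potassium-chloride cotransporter, had log2 differences of 0.14 and 0.25 and did not pass (limma adjusted p = 0.131 and 0.0588). Slc12a1 passed with the replicate number as a block (0.0456) and without control array 4 (0.0148). It also passed with quantile normalization (0.0253), the upper 60% of probe sets (0.0398), a trended robust eBayes (0.0252) and array weights (0.0250). The groups did not overlap for Umod, which passed with the trended robust eBayes (0.0400). The mean of the list ran from 10.82 to 10.92 in the arrays labelled mutant and from 10.48 to 10.67 in those labelled control. Measured against this mean within each array, Cldn19 was higher by 0.31 and Cldn16 by 0.17 in the arrays labelled mutant and Cldn14 shifted by -0.24, and the groups overlapped for each. In whole-kidney RNA, more cells of a type and more RNA per cell cannot be told apart, and the part of the marker shift in the claudin values was not tested.

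Marker lists of the other segments were read beside their claudins. Of 12 proximal tubule markers 2 rose and 0 fell: Slc22a8, an organic anion transporter (log2 difference 0.30), and Aqp1, the water channel (0.29), with a list median of 0.12. Of 10 principal cell markers 2 rose, Aqp3 (0.45) and Hsd11b2 (0.31), with a median of 0.18. Relative to these lists within each array, Cldn2 shifted by -0.15, Cldn10 by 0.04, and Cldn3, Cldn4, Cldn7 and Cldn8 by -0.10 to -0.02, and the groups overlapped for each. Of 10 intercalated cell markers 3 rose and 0 fell, led by the ammonia transporter Rhbg (0.68) and the anion exchanger gene Slc4a9 (0.37), with a list median of 0.15. Of 8 distal convoluted and connecting tubule markers 3 rose, led by the calcium-binding S100g (0.91) and the magnesium channel Trpm6 (0.71); the list median was 0.35, above that of the thick ascending limb list. Of 5 thin limb markers Cryab rose (0.38), with a list median of 0.31. Other members of most lists went the other way without passing. Differences ran from -0.41 to 0.55 in the proximal list and from -0.13 to 0.45 in the principal cell list. They ran from -0.25 to 0.68 in the intercalated list and from -0.20 to 0.91 in the distal convoluted and connecting list. The thin limb list ran from 0.01 to 0.50. Leaving out 1 array ended the call of Slc22a8 (mutant array 2, 3 or 4, control array 1, 3 or 4), Slc4a9 (the same arrays), Cryab (mutant array 1, 3 or 4, control array 1, 2 or 3), Aqp3 (mutant array 1, 2 or 4, control array 2 or 3) and Hsd11b2 (control array 3), with limma adjusted p from 0.0510 to 0.121. S100g and, among the podocyte genes, Podxl no longer passed without mutant arrays 1 and 2 together (0.0943 and 0.0652).

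Cells outside the tubule were read in the same way. All 10 endothelial markers fell, led by Kdr (log2 difference -0.90) and Cdh5 (-0.84). Cldn5, the endothelial claudin, differed by -0.11 and did not pass (limma adjusted p = 0.377). Of 8 parietal and podocyte genes 2 fell, Ncam1 (-0.58) and Podxl (-0.29), and 0 rose. None of 8 urothelial markers passed; their mean ran from 7.53 to 7.81 in the arrays labelled mutant and from 7.38 to 7.65 in those labelled control, and Upk1b, the uroplakin with the largest difference (0.27), was highest in mutant array 4 (8.58). Urothelium also makes sealing claudins, and its part in their values was not tested. None of 8 immune cell markers passed. Their mean divided the arrays labelled mutant, at 8.14 and 8.13 in arrays 1 and 2 and 7.65 and 7.67 in arrays 3 and 4. It ran from 7.87 to 8.11 in the arrays labelled control. Lyz2, with the largest difference (-0.39), spread from 8.37 to 9.49 in the arrays labelled mutant. Without mutant arrays 1 and 2 Lyz2 passed as lower (-0.79, limma adjusted p = 0.0112).

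**Figure D3:**
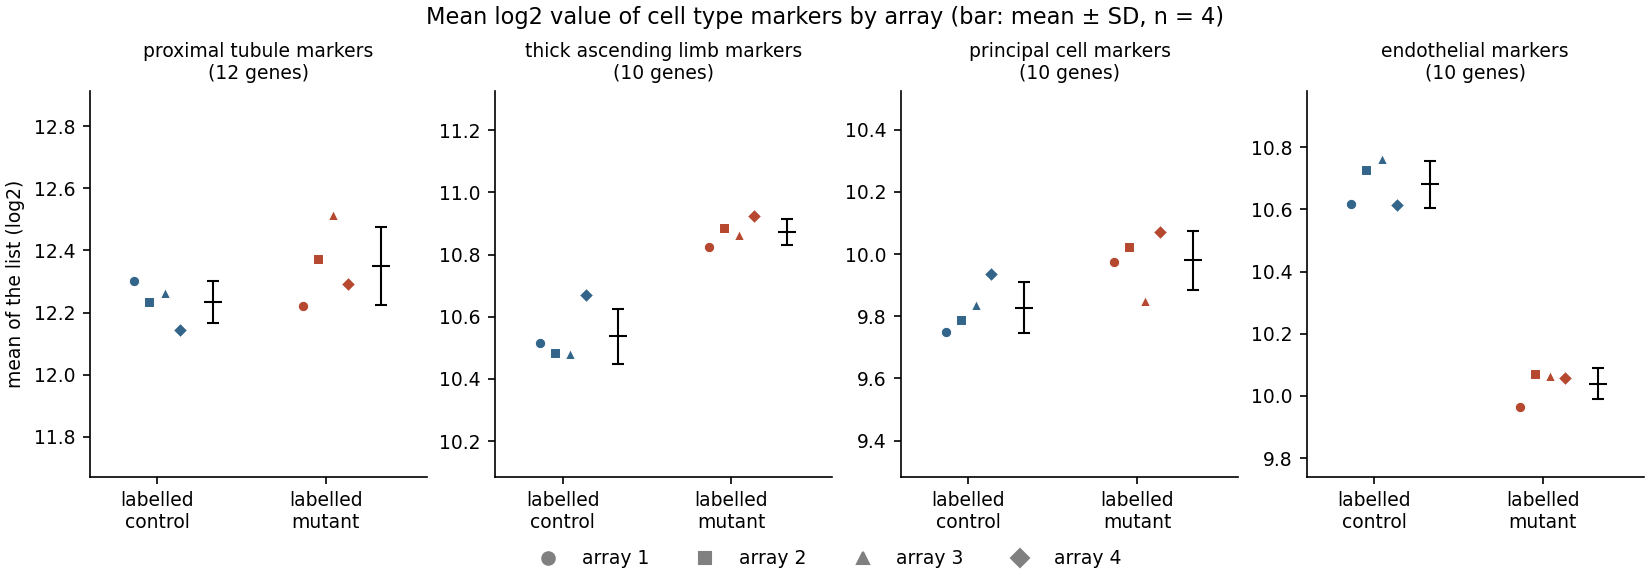
Mean log2 value of the marker genes of 4 cell types in each array, with group means and SD (n = 4) as black bars; axes have equal length and their own centre. The thick ascending limb mean is separate between groups and higher in the arrays labelled mutant, the endothelial mean is separate and lower, and the proximal and principal cell means overlap.

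Among 13 other claudins 2 fell and 0 rose. Cldn6, best known from embryonic epithelium, read 7.43, 7.46, 7.16 and 7.37 in the arrays labelled mutant and 7.82, 7.92, 8.15 and 7.79 in those labelled control. This was 1.48-fold lower without overlap (limma adjusted p = 0.00562). The mean of the arrays labelled mutant (7.36) lay below the array medians, and that of the arrays labelled control (7.92) above them. Cldn15, a sodium pore of the gut, fell 1.36-fold (9.14 ± 0.13 against 9.58 ± 0.10, SD, n = 4 each; limma adjusted p = 0.00741). The median of the 13 was 0.02.

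Genes for the junction's scaffold and strand partners moved in both directions: of 25 measured, 3 rose and 2 fell, with a median of 0.02. Ildr2, an angulin of three-cell junctions, rose by 0.36 on the log2 scale (9.78 ± 0.14 against 9.42 ± 0.039, SD, n = 4 each; limma adjusted p = 0.0132). Marveld3, a relative of occludin, rose by 0.32 and the polarity gene Crb3 by 0.26. Jam2 and Jam3, adhesion molecules of junctions that endothelium also makes, had log2 differences of -0.57 and -0.38. Ildr2 and Jam2 passed under every omission of 1 array. Marveld3 no longer passed when mutant array 2 or 3, or one of control arrays 1 and 2, was left out (limma adjusted p 0.0525 to 0.0655), Crb3 when any array but mutant array 3 or control array 4 was (0.0501 to 0.120), and Jam3 without any 1 array but control array 4 (0.0555 to 0.128). Ocln and Tjp1, for occludin and ZO-1, differed by 0.09 and -0.20 and did not pass (limma adjusted p = 0.611 and 0.0652). The groups did not overlap for Tjp1, which passed as lower with the upper 60% of probe sets (0.0392) and a trended robust eBayes (0.0394).

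Of 13 measured genes for regulators of claudins 4 rose and 0 fell, with a median of 0.17. Casr encodes the calcium-sensing receptor, which in the thick ascending limb raises Cldn14 and lowers calcium reabsorption. It read 10.94, 10.98, 10.90 and 10.81 against 10.52, 10.61, 10.68 and 10.54, a log2 difference of 0.32 (limma adjusted p = 0.0102). Klhl3, the ubiquitin ligase adaptor, and Wnk4, a kinase that phosphorylates claudins, both rose by 0.39, and Prss8, the protease prostasin, by 0.28. Klhl3 no longer passed when control array 1, 3 or 4 was left out (limma adjusted p 0.0524 to 0.0693) and Prss8 without control array 2 (0.0503). With mutant arrays 1 and 2 left out together Casr, Klhl3 and Prss8 no longer passed (limma adjusted p = 0.0761, 0.0537 and 0.0738). Wnk4 and Prss8 no longer passed with mutant arrays 3 and 4 left out (0.0554 and 0.0546). Pth1r, the parathyroid hormone receptor gene, differed by 0.17 and did not pass (limma adjusted p = 0.188).

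**Figure D4:**
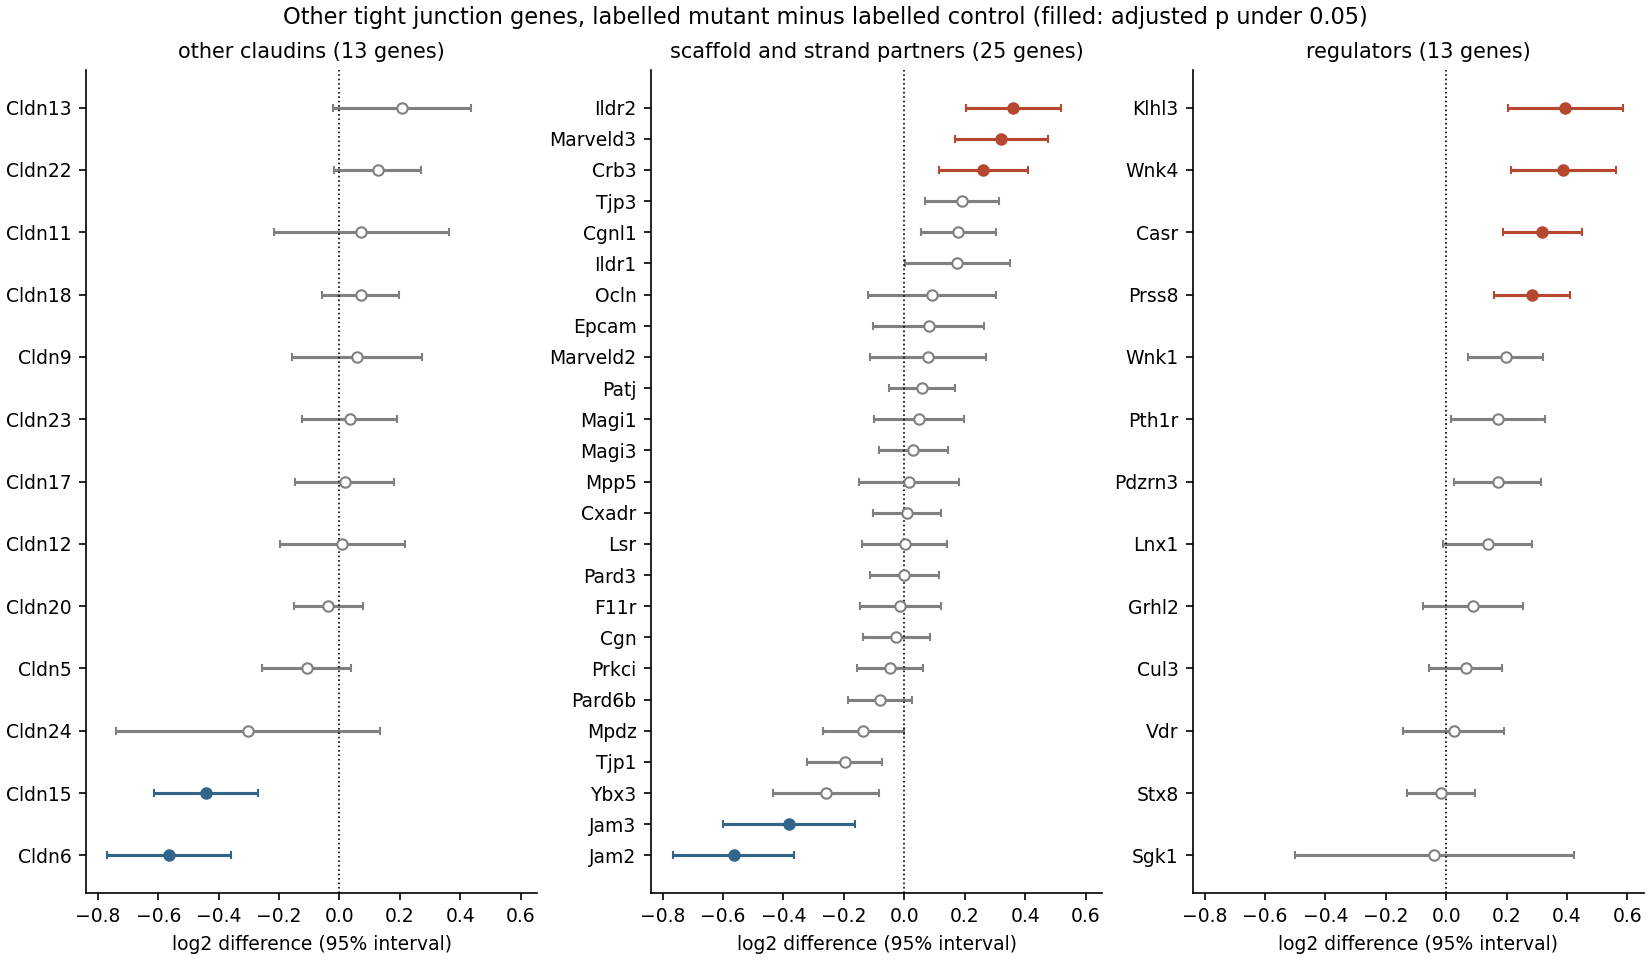
Log2 difference, arrays labelled mutant minus arrays labelled control, with 95% limma intervals, for 13 other claudins, 25 scaffold and strand partner genes and 13 regulators; filled points passed the test. Cldn6, Cldn15, Jam2 and Jam3 are lower, and Ildr2, Marveld3, Crb3, Klhl3, Wnk4, Casr and Prss8 are higher.

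Several of the claudins lie next to each other in the mouse genome. In the gene table of assembly GRCm38.p6 Cldn1, Cldn16 and Tmem207 follow one another on chromosome 16. Cldn16 and Tmem207 rose, by 0.51 and 0.86 on the log2 scale, and Cldn1 on the other side did not pass. Cldn3 and Cldn4 are neighbours on chromosome 5, and Mettl27, the gene next to Cldn4, rose by 0.47 (limma adjusted p = 0.00940, and 0.0732 without mutant arrays 1 and 2 together). Slc2a4, the glucose transporter gene beside Cldn7 on chromosome 11, rose by 0.60 (limma adjusted p = 0.00147). Both genes beside Cldn19 on chromosome 4, P3h1 and Ybx1, did not pass (log2 differences -0.03 and -0.27), but Ybx1 passed as lower in the blocked fit (limma adjusted p = 0.0402) and without mutant array 3 (0.0392). Chaf1b, beside Cldn14 on chromosome 16, fell by 0.28 (limma adjusted p = 0.0415). It did not pass with the block (0.0642) or without any 1 array but mutant array 1 or control array 4 (0.0710 to 0.116). The remaining neighbours did not pass. These were Elp5 beside Cldn7 (0.07), Abhd11 beside Cldn3 (0.13), Sim2 beside Cldn14 (0.24) and P3h2 beside Cldn1 (-0.03). They also included Ripply1 (0.25) and Morc4 (-0.25) beside Cldn2, and Abcc4 (0.16) and Dzip1 (0.10) beside Cldn10. Beside Cldn8 lay Cldn17 (0.02) and Krtap24-1 (-0.02).

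Among themselves the claudins varied in a few pairs once group means were removed. Over the 8 arrays the deviations of Cldn4 and Cldn7 had a Pearson correlation of 0.836 and those of Cldn2 and Cldn10 of 0.710. Cldn16 and Cldn19 had 0.303, lower than Cldn16 with Cldn8 (0.620) or Cldn19 with Cldn14 (0.575). The lowest values were -0.890 for Cldn7 with Cldn14 and -0.855 for Cldn1 with Cldn3. Of 89 marker genes the one most like Cldn19 was Bsnd (0.816), the one most like Cldn7 was Gata3, a collecting duct factor (0.854), and the one most like Cldn1 was Ncam1 (0.938). The best matches of the others were Esam for Cldn2 (0.869), Trpm6 for Cldn10 (0.857), Krt5 for Cldn8 (0.782), Ehd3 for Cldn16 (0.770), Egf for Cldn4 (0.765), Tmem72 for Cldn3 (0.763) and Bst1 for Cldn14 (0.578). Of these, Esam and Ehd3 are from the endothelial list and Krt5 from the urothelial list. These are descriptions over 8 arrays that share pairs of replicate numbers, and each is the highest of many.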

How the data were processed

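RNA was isolated with TRIzol, purified on RNeasy columns and biotin-labelled for Affymetrix arrays, per the labels' protocols. The values are the deposited log2 summaries of 35556 probe sets on 8 arrays; the submitters' processing notes name limma, and background correction, summarization, normalization and build are not given in the sources used here. Precision is limited by there being 8 arrays. Of the probe sets, 21789 named 1 gene, 1621 several and 12146 were not listed; 21701 of the 21789 matched a current gene of GRCm38.p6, used for names and gene order.

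The fit used limma 3.58.1 under R 4.3.3 (1 factor, 8 arrays, two-sided, Benjamini-Hochberg over 19936 genes), without filter or renormalization, and the fit was tested on simulated data. The simulated arrays were independent of each other, so that test does not cover the correlation of same-numbered arrays given below. P-values test the difference between the labelled groups against the spread between mice within them, with each gene's variance moderated over all genes. Members and lists were chosen with earlier results of these data known. Named were all members, every called gene of the claudin, partner and regulator lists, the 2 called genes of largest change in each marker list (else the largest), and genes that check the labels; Cldn5, Ocln, Tjp1, Pth1r, Umod, Slc12a1 and neighbouring genes were added after their values were seen. Same-numbered arrays deviated together over all genes (correlations 0.138, 0.153, 0.295 and 0.175, all above 0.1, where different numbers reached 0.111). On this evidence from the data, not the labels, arrays of one number were treated as pairs in the same-number differences and the blocked fit. The main fit and the other alternatives left this pairing out, so p-values and intervals are unpaired unless the block is named. Some genes of the lists are not reported here.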

Additional observations from a re-analysis of the deposited data

Results flagged for a closer look

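Among 124 sets of 4 arrays (the named genes and the marker means, by group), 8 had 1 array far from the other 3; chance alone flags about 1 in 20. Among the 20 sets of the 10 claudins there was 1: Cldn8 read 11.31 in mutant array 3 and 11.38 to 11.39 in the other arrays labelled mutant, a gap that stands out only because those 3 lie so close together.

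Mutant array 4 was the far array in 5 of the others. It read 11.03 for Tmem207 (others 10.71 in each), 10.67 for Bsnd (others 10.74), 8.87 for Jam2 (others 8.53 to 8.56), 8.58 for Upk1b (others 7.65 to 7.77) and 7.81 for the mean of the urothelial markers (others 7.53 to 7.56). Control array 3 read 9.58 for Aqp3 (others 9.94 to 10.01), and mutant array 1 read 9.96 for the mean of the endothelial markers (others 10.06 to 10.07). The causes were not tested.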

How the results depend on the processing

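The count of 2 higher and 0 lower claudins was the same under all 17 alternatives: quantile normalization, median centring, the upper 60% of probe sets, array weights, a trended robust eBayes, averaging a gene's probe sets, the replicate block, each array left out in turn, and, chosen after the data were seen, mutant arrays 1 and 2 or 3 and 4 left out together. Among the claudins, averaging probe sets could alter the values of Cldn10 only, because the others have a single probe set of their own. With the replicate block Cldn16 differed by 0.51 and Cldn19 by 0.65, as in the fit without it, and of 52 named genes it changed the call of 4: Vhl and Chaf1b lost theirs, and Slc12a1 and Ybx1 gained one. The uncalled claudins stayed uncalled throughout; the differences of Cldn2, Cldn4, Cldn8 and Cldn1 crossed 0 under some settings. Related genes called higher, 7 in all, numbered 4 to 6 with 1 array left out, 2 when mutant arrays 1 and 2 were left out and 4 when mutant arrays 3 and 4 were (4 also without control array 1 or control array 2). All genes called higher, 517, numbered 263 to 487 with 1 array left out (263 without mutant array 2, 284 without control array 2, 282 without control array 3) and 316 without mutant arrays 1 and 2. All genes called higher numbered 676 without mutant arrays 3 and 4. The deposited table holds no background reading, so low probe sets such as those of Cldn14 and Cldn6 have no detection call.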
